A study of Mus musculus with 6 samples.

Results

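Lipoxygenases add oxygen to polyunsaturated fatty acids such as arachidonic acid, and most members of the family are named for the carbon they attack. In leukocytes, the protein encoded by Alox5ap presents arachidonic acid to the 5-lipoxygenase, and the product leukotriene A4 is then turned into leukotriene B4 by Lta4h or joined to glutathione by Ltc4s. The genes described here are the mouse lipoxygenases Alox15, Alox12, Alox12e, Alox8, Alox12b and Aloxe3 and the leukotriene genes Alox5ap, Lta4h and Ltc4s. The question was whether these genes of the mouse itself differ in prostates that carry a 15-LOX2 transgene. They were chosen by gene symbol, not by a rule on their measured values, though earlier results of these data were known. They comprise 9 genes with 11 probes, of 17183 named genes and 41174 probes on the array. No probe carried the name Alox5, so the 5-lipoxygenase itself was not analysed here.

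RNA of ventral prostate from FVB mice was hybridized to 6 Agilent whole mouse genome arrays with 2 colours. The red dye (Cy5) carried RNA of 2.5 month old mice of line fl26, transgenic for 15-LOX2 (2 arrays), of 2.5 month old mice of line svb9, transgenic for 15-LOX2 splice variant b (2 arrays), or of 15 month old wild type mice (2 arrays). The green dye (Cy3) carried RNA of 2.5 month old wild type mice on all 6 arrays. The sample labels describe pools of 3 mice and the design text describes pools of 6, with independent samples on the arrays of a group. Each transgene is represented by 1 line, and the promoter that drives it is not given in the sources used here. No array had its dyes swapped. A difference from young wild type therefore cannot be told apart from a dye effect, whereas fl26 and svb9 share the red dye. In bulk tissue, fewer cells of a type and less RNA per cell cannot be told apart either.

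The tissue label was checked on marker genes: Krt8, Krt18 and Hoxb13, genes of luminal prostate cells, were well above background in both channels on all 6 arrays. So were Sbp and Spink1, which encode secretory proteins of the ventral lobe, but their values differed widely. Their log2 ratios ran from -1.61 to 1.19 on the fl26 and svb9 arrays, and were 8.87 and 7.05 on old wild type array 1 and 2.49 each on old wild type array 2. Their spots were saturated in red on 5 arrays for Sbp and 5 for Spink1, and in green on 6 and 6. The secretory list of 3 genes (with Mt3) summed to normalized levels between 7842 and 190340 in the green channel of young wild type. Saturated spots do not measure a level, and the part of these genes in the values below was not tested. In red, 27150 and 17620 probes were well above background on the fl26 arrays, 27832 and 14617 on the svb9 arrays, and 3218 and 13597 on the old wild type arrays, against 24835 to 30381 probes in the green channel of young wild type. Old wild type array 1 stood apart with its 3218 red probes. For old mice, the median over the tested probes of these genes and the lowest means are therefore also given without it. Other means for old mice include it.

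The genes lie in few places of the genome. By the RefSeq gene table, the 6 lipoxygenase genes and Ltc4s are on mouse chromosome 11, Alox5ap on chromosome 5 and Lta4h on chromosome 10. The probe named Alox15b in the files is Alox8 in that table. Alox8 is the mouse counterpart of human ALOX15B, the gene of 15-LOX2, and it is the endogenous gene closest to the transgene. Whether its probe can bind transgene RNA is not known from the files, so its signal is no check of the transgene.

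All of these genes were dim. Across the 11 probes, the mean spot brightness before background subtraction in the red channel had a median of 203 intensity units on fl26 array 1 and 106 on fl26 array 2, 182 on svb9 array 1 and 97.3 on svb9 array 2, and 79.0 on old wild type array 1 and 93.4 on old wild type array 2. The local red background of those spots was between 75.5 and 84 units on all 6 arrays. On old wild type array 1 the 11 spots measured between 72 and 81.2 red units, over a background of 76 to 80 units, and none was well above background. The green channel of young wild type had probe medians between 64.5 and 93.3 units, over backgrounds of 38 to 44 units.

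Signal well above background was seen in red at 14 of 22 spots on the fl26 arrays (11 probes on 2 arrays), at 12 of 22 on the svb9 arrays and at 3 of 22 on the old wild type arrays. In green the counts beside them were 16, 19 and 17 of 22. The probe of Alox8 was above background once, in young wild type on svb9 array 1, and probe 2 of Alox12b never was. These probes were left untested, and 9 probes of 8 genes entered the test among 27858 probes of 13884 genes. A probe was tested if the 2 arrays of any group both showed it well above background in red, or both in green, so a gene could enter through young wild type alone. The plot of channel levels sets each signal beside the detection limit of its array.

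**Figure D1:**
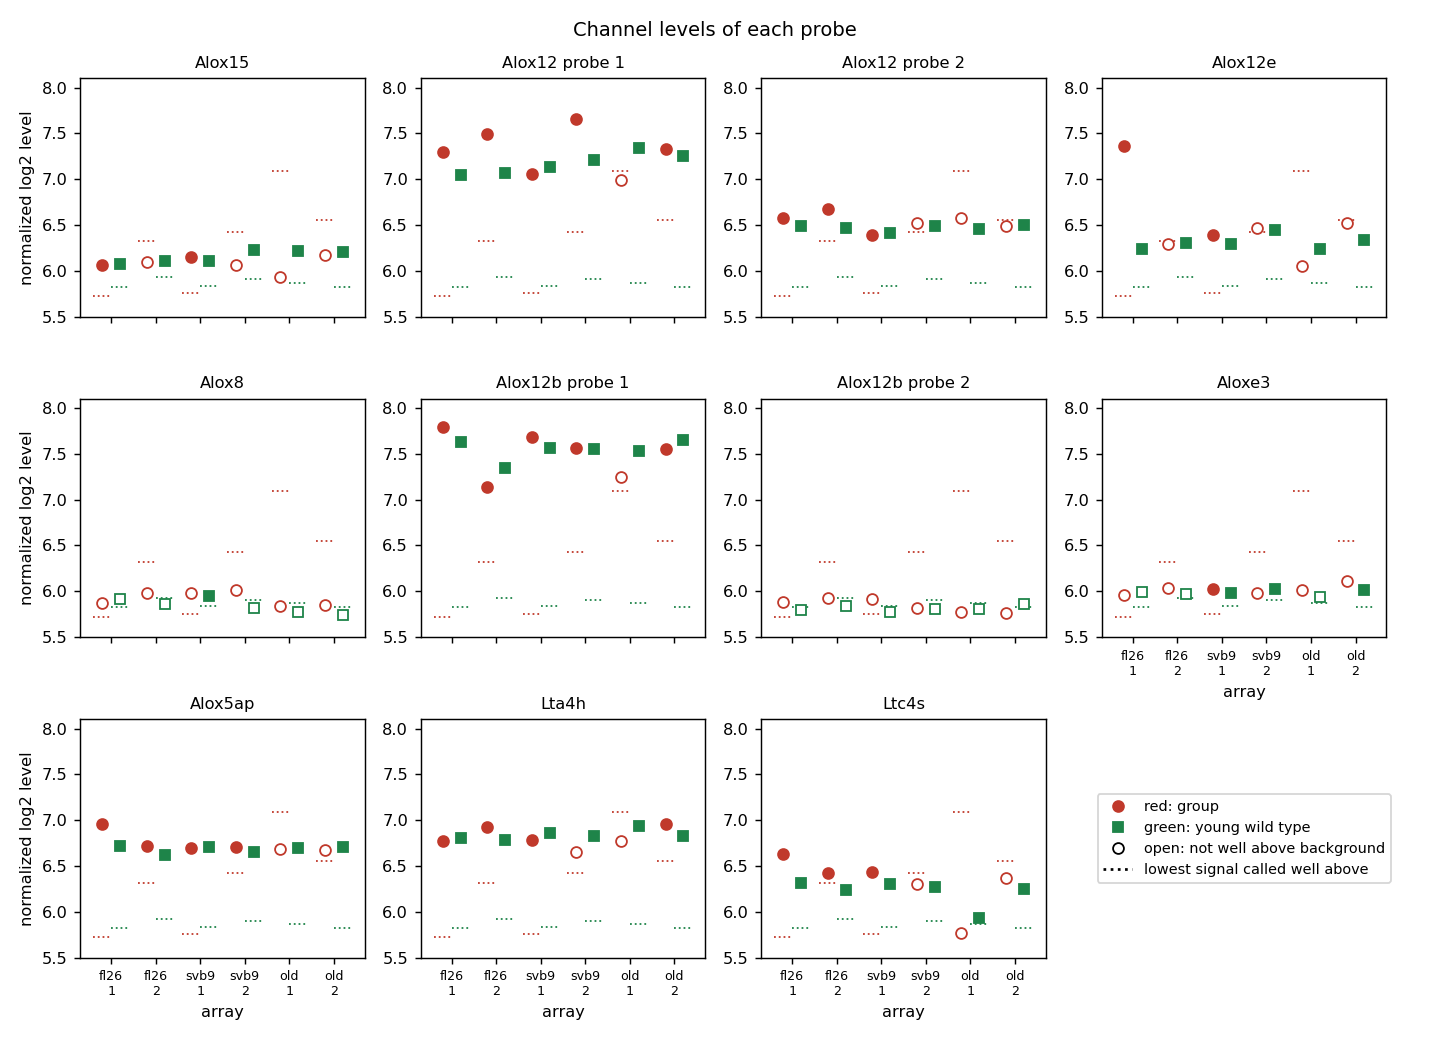
Normalized log2 level of each of the 11 probes (panels) in the red channel (group, circles) and the green channel (young wild type, squares) on the 6 arrays; open symbols were not well above background, and dotted lines mark the lowest level called well above background in that channel. The red limit is 5.72 on fl26 array 1 and 7.09 on old wild type array 1, and both channels of Alox8 and of probe 2 of Alox12b lie near 6.

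Alox15 encodes the lipoxygenase of mouse macrophages and eosinophils, which in the mouse makes mainly the 12-hydroperoxide. Its red brightness was 117 and 87.6 on the fl26 arrays, 136 and 81.8 on the svb9 arrays, and 72 and 85.3 on the old wild type arrays. Red was well above background only on array 1 of fl26 and array 1 of svb9, whereas young wild type was above it on all 6 arrays. The log2 ratios over young wild type were -0.012 and -0.0041 on the fl26 arrays, 0.044 and -0.16 on the svb9 arrays, and -0.28 and -0.035 on the old wild type arrays. The fl26 values lay beside 0 and both old wild type values below it, and the svb9 arrays lay on opposite sides of 0. The mean log2 ratio was -0.0078 ± 0.093 in fl26 (SE from limma, here and below), -0.060 ± 0.093 in svb9 and -0.16 ± 0.093 in old mice. For fl26 the 95% interval ran from 0.85-fold to 1.16-fold.

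Alox8 encodes the 8-lipoxygenase of mouse skin. Its red brightness was 96.6 and 87.8 on the fl26 arrays, 112 and 87.4 on the svb9 arrays, and 81.1 and 81 on the old wild type arrays. The green brightness of young wild type on the same arrays was 68.9, 52.7, 72.4, 49.7, 47.7 and 48.5. Both channels were brightest on array 1 of fl26 and array 1 of svb9. With red never well above background, the probe gives no ratio to compare.

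Alox12 encodes the 12-lipoxygenase of platelets, and its 2 probes both reached the test. The log2 ratios of probe 1 were 0.25 and 0.43 on the fl26 arrays, -0.075 and 0.45 on the svb9 arrays, and -0.35 and 0.075 on the old wild type arrays. Both fl26 arrays were above 0, and svb9 array 2 was above both of them, so the lines overlapped. The log2 ratios of probe 2 were 0.082 and 0.20 on the fl26 arrays, -0.021 and 0.041 on the svb9 arrays, and 0.11 and -0.012 on the old wild type arrays. On this probe both fl26 arrays were above both svb9 arrays, and old wild type array 1 lay between the fl26 values. Its red was not well above background on svb9 array 2 or on either old wild type array. The mean of probe 1 in fl26 was 0.34 ± 0.15, with a limma 95% interval from -0.036 to 0.71 and an adjusted p of 0.524 (Benjamini-Hochberg over all tested probes). The mean of probe 2 in fl26 was 0.14 ± 0.077, with a limma adjusted p of 0.592. The probes ordered the arrays differently, with a Pearson r of 0.28 over the 6 arrays, which all compare with young wild type and share the dim red channel. Of 6 platelet marker genes, 4 were tested and the median log2 ratio of the list was 0.0049 in fl26, with 2 genes above 0 and 2 below it. The part of platelets in the Alox12 values was not tested.

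Alox12e encodes the epidermal type of 12-lipoxygenase. Among the 11 probes it had the spot furthest from a log2 ratio of 0. Its red brightness was 375 and 99.4 on the fl26 arrays, 175 and 97.3 on the svb9 arrays, and 79 and 94.4 on the old wild type arrays. Its log2 ratios over young wild type were 1.12 and -0.015 on the fl26 arrays, 0.10 and 0.021 on the svb9 arrays, and -0.19 and 0.18 on the old wild type arrays. Only fl26 array 1 stood apart, and fl26 array 2 lay among the svb9 and old wild type arrays. The fl26 mean of 0.55 ± 0.25 had a limma 95% interval from -0.049 to 1.16 and an adjusted p of 0.520. Without fl26 array 1 it was -0.015, with a limma adjusted p of 0.980, so the value rested on that array. On the date of image extraction that fl26 array 1 shared with svb9 array 1, fl26 was 1.02 higher than svb9 on the log2 scale. On the 4 arrays of the other dates, no red spot of Alox12e was well above background.

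Alox12b and Aloxe3 encode the enzymes that act one after the other in building the water barrier of the epidermis. The log2 ratios of probe 1 of Alox12b were 0.17 and -0.21 on the fl26 arrays, 0.12 and 0.015 on the svb9 arrays, and -0.27 and -0.096 on the old wild type arrays. The fl26 arrays lay on opposite sides of 0, and the old wild type arrays were both below it. Probe 2 of Alox12b was never above background in either channel and gives no value. Aloxe3 had log2 ratios of -0.035 and 0.071 on the fl26 arrays, 0.04 and -0.044 on the svb9 arrays, and 0.085 and 0.096 on the old wild type arrays. All 6 lay within 0.1 of 0, and red was above background only on svb9 array 1. On the fl26 arrays neither channel of Aloxe3 was above background, and it entered the test through young wild type on the svb9 arrays. Its fl26 mean therefore does not compare detected levels. The fl26 means were -0.019 ± 0.11 for Alox12b and 0.018 ± 0.073 for Aloxe3, with limma adjusted p of 0.971 and 0.956. Of 9 genes of stratified epidermis, 6 were tested and Flg and Ivl, which mark the outer epidermis, were never above background. Lor, of the same list, was above background in red on 5 arrays and in green on 6. Its log2 ratios were 0.41 and 0.52 on the fl26 arrays. In fl26, 3 of the 6 had a mean above 0 and 3 below it, and the list's median was 0.017. Its part in these values was not tested.

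Alox5ap encodes the membrane protein that hands arachidonic acid to the 5-lipoxygenase. Its red brightness was 293 and 119.6 on the fl26 arrays, 244 and 105 on the svb9 arrays, and 79.2 and 96.4 on the old wild type arrays, with red above background on the fl26 and svb9 arrays and on neither old wild type array. Its log2 ratios were 0.24 and 0.097 on the fl26 arrays, -0.014 and 0.05 on the svb9 arrays, and -0.0087 and -0.039 on the old wild type arrays. Both fl26 arrays were above the 4 others, which lay between -0.039 and 0.050. The fl26 mean was 0.17 ± 0.075, with a limma 95% interval from -0.012 to 0.35 and an adjusted p of 0.514. It was 0.018 ± 0.075 in svb9 and -0.024 ± 0.075 in old mice.

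Alox5ap is a gene of myeloid cells, and the macrophage markers are given beside it. Of 10 macrophage marker genes, 9 were tested, and the median log2 ratio of the list was 0.36 and 0.068 on the fl26 arrays, 0.062 and 0.011 on the svb9 arrays, and 0.031 and 0.12 on the old wild type arrays. In fl26, 8 of the 9 had a mean above 0, led by Lyz2, the macrophage lysozyme, at 1.11 and 0.47, and none was called. The red levels of the list summed to 3234.5 and 2805.3 in fl26, 2194.6 and 2438.7 in svb9, and 2203.4 and 4348.8 in old mice, against 1882.9 to 3472 in young wild type across the 6 arrays. Msr1 was the only macrophage marker never above background. The part of macrophages in the Alox5ap values was not tested.

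Lta4h encodes the hydrolase that makes leukotriene B4. Its log2 ratios were -0.03 and 0.14 on the fl26 arrays, -0.069 and -0.18 on the svb9 arrays, and -0.16 and 0.13 on the old wild type arrays. The signs disagreed within fl26 and within old wild type, and both svb9 arrays were below 0. Red was not well above background on svb9 array 2 and old wild type array 1. The means were 0.057 ± 0.098 in fl26, -0.12 ± 0.098 in svb9 and -0.016 ± 0.098 in old mice, with limma adjusted p of 0.889, 0.980 and 0.966.

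Ltc4s encodes the synthase that makes leukotriene C4, the first of the cysteinyl leukotrienes of mast cells and eosinophils. Its red brightness was 203 and 106 on the fl26 arrays, 182 and 91.6 on the svb9 arrays, and 73.4 and 92.5 on the old wild type arrays. The green brightness of young wild type on the same arrays was 90.4, 68.1, 93.2, 68.6, 55.1 and 67. Its log2 ratios were 0.33 and 0.19 on the fl26 arrays, 0.14 and 0.032 on the svb9 arrays, and -0.17 and 0.12 on the old wild type arrays. Both fl26 arrays were above both svb9 arrays and both old wild type arrays. Red was not well above background on svb9 array 2 or on either old wild type array. The fl26 mean was 0.26 ± 0.095, with a limma 95% interval from 0.025 to 0.49, beside 0.085 ± 0.095 in svb9 and -0.024 ± 0.095 in old mice. Its unadjusted limma p of 0.0350 was the only one under 0.05 among the 9 probes in any comparison, and its adjusted p was 0.451. On old wild type array 1 the green level of Ltc4s was also the lowest of the 6 arrays.

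Mast cell and eosinophil markers are given beside Ltc4s. Of 8 mast cell genes, 6 were tested, and the list's median was 0.042 and -0.023 on the fl26 arrays, 0.094 and 0.14 on the svb9 arrays, and 0.019 and 0.12 on the old wild type arrays. Their red levels summed to 478.29 and 631.67 in fl26, 507.42 and 587.1 in svb9, and 460.89 and 530.59 in old mice, against 454.81 to 554.04 in young wild type. In fl26, 4 of the 6 had a mean above 0, from -0.091 for Cpa3, the mast cell carboxypeptidase, to 0.26 for Ms4a2, a chain of the mast cell IgE receptor, and Hdc was never above background. Of 5 eosinophil genes only Ccr3 was tested, and Siglecf, Prg2 and Il5ra were never above background. The part of these cells in the Ltc4s values was not tested.

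**Figure D2:**
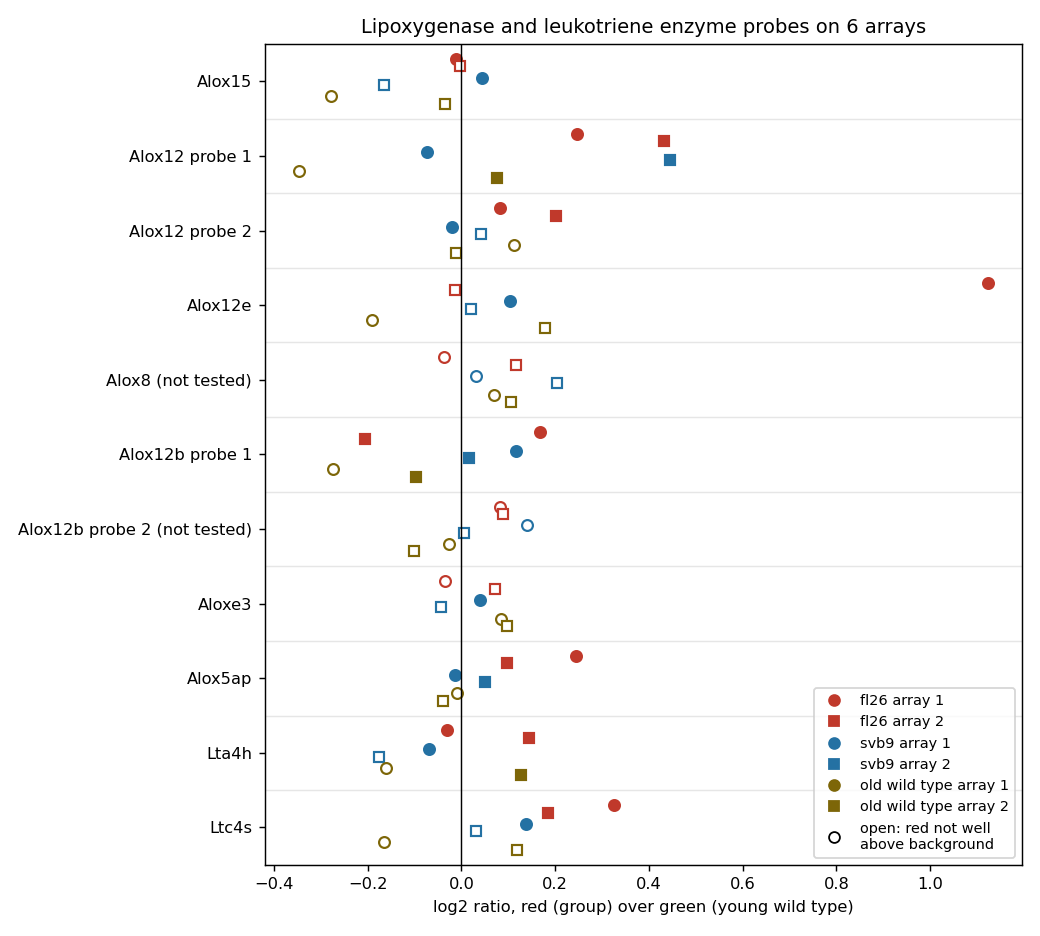
Log2 ratio of red (fl26, svb9 or old wild type) over green (young wild type) for each of the 11 probes, with 1 point per array; circles are array 1, squares array 2, and open symbols had red not well above background. The point at 1.12 is Alox12e on fl26 array 1, and the remaining 65 points lie between -0.35 and 0.45.

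None of the 9 tested probes was called in fl26 over young wild type at a limma adjusted p of 0.05. In that comparison 14 of 27858 probes (0.0503%) were called. An unadjusted p under 0.05 was found for 1 of the 9 probes, beside 2832 of all probes (10.2%). The median log2 ratio of the 9 was 0.14, with 7 above 0, beside a median of 0.00018 over all tested probes, of which 50.1% were above 0. The 4 tested basal epithelial marker genes were all above 0 as well in fl26, with none called and a lowest limma adjusted p of 0.0589. Their median was 0.59 and 0.29 on the fl26 arrays, -0.034 and 0.074 on the svb9 arrays, and 0.13 and -0.22 on the old wild type arrays. Their red levels summed to 4276.8 and 3568.6 in fl26, 2826 and 3597.6 in svb9, and 11785 on old wild type array 1. Young wild type summed to between 2715.9 and 5206.5 on those arrays. On old wild type array 1, red was well above background for 1 of the 4 genes, Krt15, whose log2 ratio there was 1.38. On old wild type array 2 the spot of Krt15 was an outlier and left out. The remaining genes summed there to 1443.2 in red and 1534.3 in green, and the median there is also theirs. The part of the basal genes in the members' values was not tested. The members reached from -0.019 for Alox12b to 0.55 for Alox12e. On 4 of the 9 probes (both Alox12 probes, Alox5ap and Ltc4s) both fl26 arrays were above 0, on Alox15 both were below it, and on 4 the signs differed. Arrays of fl26 shared a sign for 53.4% of all probes tested.

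In svb9 over young wild type 0 of the 9 probes were called, beside 0 of 27858 probes (0%), and limma adjusted p ran from 0.980 to 0.99966. Unadjusted p was under 0.05 for none of the 9, beside 1240 of all probes (4.45%). The median over the 9 was 0.018, with 6 above 0 (beside 48.7% of all probes), and the means reached from -0.12 for Lta4h to 0.19 for probe 1 of Alox12. The svb9 arrays shared a sign on 4 of the 9 probes, beside 55.5% of all probes. The widest 95% interval was that of Alox12e, from -0.54 to 0.67, and the narrowest was that of Aloxe3, from -0.18 to 0.17. Red of Aloxe3 was not well above background on svb9 array 2.

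In old over young wild type 0 of the 9 probes were called, beside 0 of 27624 probes (0%), and limma adjusted p ran from 0.570 to 0.996. Unadjusted p was under 0.05 for none of the 9, beside 3158 of all probes (11.4%). The median over the 9 was -0.024, with 2 above 0 (beside 43.9% of all probes). Without old wild type array 1 the median was 0.075, with 5 above 0. Alox15 at -0.16 and probe 1 of Alox12b at -0.19 were the lowest means, and without old wild type array 1 they were -0.035 and -0.096. Red signal was not well above background on either old wild type array for Alox15, probe 2 of Alox12, Alox12e, Aloxe3, Alox5ap and Ltc4s. No fold is bounded for these genes: the bound set for the dim group, the mean over arrays of the higher of the lowest signal called above background and the spot's own level, was above the young wild type mean for the 5 whose green signal was above background on both arrays.

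The lines were also set against each other. None of the 9 probes was called in fl26 minus svb9, beside 0 of 27858 probes (0%), and every limma adjusted p was 0.99995. Unadjusted p was under 0.05 for none of the 9, beside 607 of all probes (2.18%). The median difference was 0.15, with 8 above 0 and only Alox12b below, beside a median of 0.0054 over all probes, of which 52% were above 0. All 4 basal markers and all 9 tested macrophage markers had a difference above 0 as well, with none called, and their part was not tested. On 4 of the 9 probes (probe 2 of Alox12, Alox5ap, Lta4h and Ltc4s) both fl26 arrays were above both svb9 arrays. This held for 12.9% of all probes with values on these 4 arrays. On 0 of the 9 both were below, beside 11.6%. On svb9 array 2, red was not well above background for probe 2 of Alox12, Lta4h and Ltc4s. Alox5ap alone among them had red above background on all 4 arrays. The differences were 0.13 ± 0.11 for probe 2 of Alox12, 0.15 ± 0.11 for Alox5ap, 0.18 ± 0.14 for Lta4h and 0.17 ± 0.13 for Ltc4s. On the shared date of image extraction, fl26 array 1 minus svb9 array 1 gave 0.10, 0.26, 0.039 and 0.19 for these probes in the same order. The comparisons of fl26 and of svb9 both have young wild type in green, and whether these were the same pools is not stated.

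**Figure D3:**
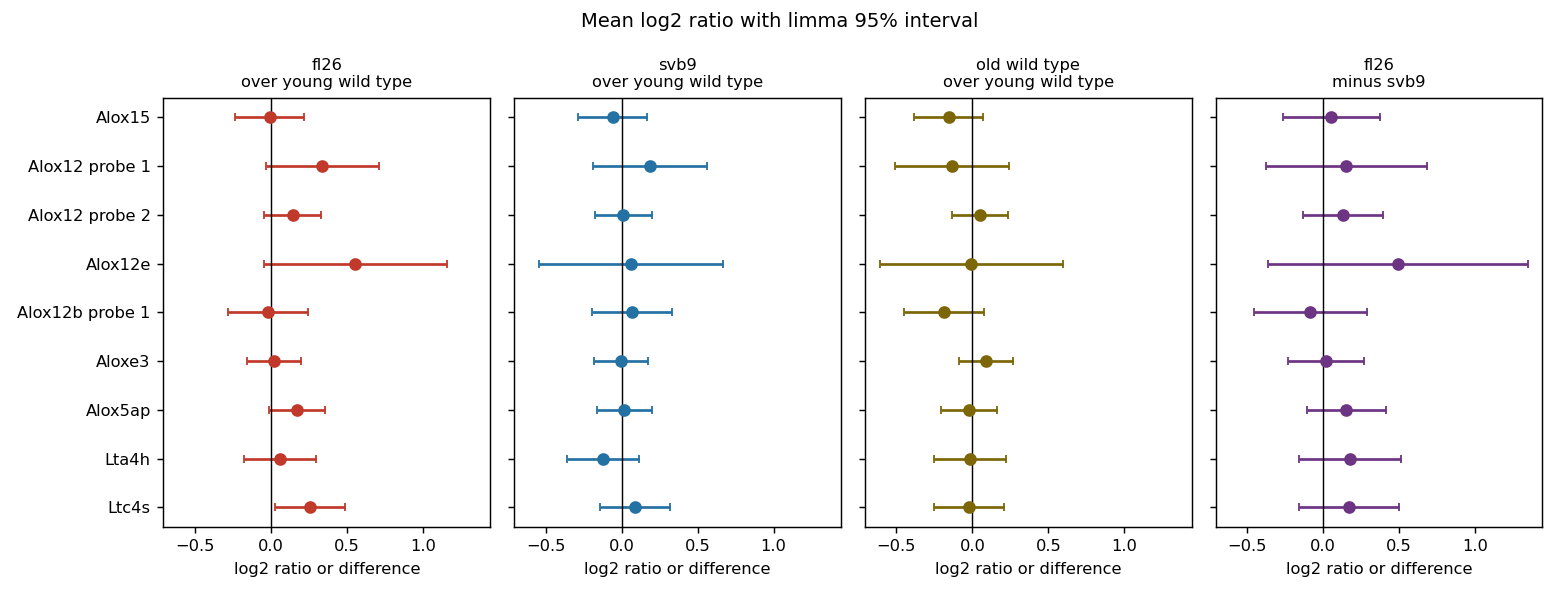
Mean log2 ratio or difference of the 9 tested probes with its limma 95% interval in the 4 comparisons (2 arrays per group). Only the interval of Ltc4s in fl26, from 0.025 to 0.49, leaves out 0, and no probe was called after adjustment over all tested probes.

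The steps before and after these enzymes were read from 48 other genes of eicosanoid supply, conversion and reception. Of these, 44 had a probe and 34 were tested with 43 probes, and none was called in any of the 4 comparisons in the fit without a block. With the replicate number as a block, probe 1 of Pla2g4a and Gpx4 were called in fl26, beside 999 of 27858 probes. The labels describe no pairing of arrays by that number. At an unadjusted limma p under 0.05 there were 6 of the 43 probes in fl26 (beside 10.2% of all probes), 1 in svb9 (4.45%), 2 in old mice (11.4%) and 3 in fl26 minus svb9 (2.18%). Of the 12 tested genes that release substrate, 5 had a mean above 0 in fl26. Of the 17 tested genes of conversion and breakdown it was 8, and of the 5 tested receptors it was 5, beside 50.1% of all tested probes. Red was well above background for 5 and 1 of the 5 receptors on the fl26 arrays and for 5 and 0 on the svb9 arrays. On the old wild type arrays it was so for 0 and 0.

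Pla2g4a encodes the cytosolic phospholipase that frees arachidonic acid from membranes, and both of its probes were below 0 on both fl26 arrays. Probe 1 had log2 ratios of -0.49 and -0.41 on the fl26 arrays, 0.017 and -0.087 on the svb9 arrays, and -0.21 and -0.35 on the old wild type arrays. Probe 2 had -0.33 and -0.35 on the fl26 arrays, -0.025 and -0.0074 on the svb9 arrays, and 0.019 and -0.22 on the old wild type arrays. The fl26 and svb9 arrays did not overlap on either probe. Both fl26 arrays were below both svb9 arrays for 11.6% of all probes with values on these arrays. The fl26 means were -0.45 ± 0.078 and -0.34 ± 0.083, with limma adjusted p of 0.212 and 0.307. Probe 1 had a limma adjusted p of 0.0329 once the replicate number was a block, where 999 of 27858 probes were called. The old wild type mean of probe 1 was -0.28 ± 0.078, with a limma adjusted p of 0.278. The differences between fl26 and svb9 were -0.41 ± 0.11 and -0.32 ± 0.12, both with a limma adjusted p of 0.99995.

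Ptgr1 encodes the reductase that also inactivates leukotriene B4. Its log2 ratios were 0.45 and 0.36 on the fl26 arrays, 0.15 and 0.24 on the svb9 arrays, and 0.16 on old wild type array 1, its spot on the other old array being an outlier that the fit left out. All 5 values were above 0 and those of fl26 were the highest. Both fl26 arrays were above both svb9 arrays for 12.9% of all probes with values on these arrays. The fl26 mean was 0.40 ± 0.079, with a limma adjusted p of 0.269. Gpx4 encodes the peroxidase that reduces lipid hydroperoxides, the direct products of lipoxygenases. Its log2 ratios were -0.31 and -0.40 on the fl26 arrays, -0.014 and -0.20 on the svb9 arrays, and 0.16 and -0.043 on the old wild type arrays. Both fl26 arrays were below the 4 others. They were below both svb9 arrays for 11.6% of all probes with values on the fl26 and svb9 arrays. The fl26 mean was -0.36 ± 0.089, with a limma adjusted p of 0.307 and, with the replicate number as a block, of 0.0471. Gpx4 was well above background in red and green on all 6 arrays.

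The remaining neighbouring genes, named whatever their values, had smaller ratios in fl26. Red was well above background on 2 of 6 arrays for Ggt5, Ltb4r1, Cysltr2 and probe 1 of Cysltr1. It was so on 1 array for probe 2 of Cysltr1 and on 3 for Dpep2. Ggt5, whose enzyme turns leukotriene C4 into D4, averaged 0.12 ± 0.082 in fl26, 0.043 ± 0.082 in svb9 and 0.086 ± 0.082 in old mice. Dpep2, whose enzyme turns leukotriene D4 into E4, averaged -0.014 ± 0.12 in fl26, 0.044 ± 0.12 in svb9 and 0.27 ± 0.12 in old mice, where its arrays were at 0.046 and 0.50. The receptor of leukotriene B4, Ltb4r1, had 0.22 and -0.056 on the fl26 arrays, 0.055 and -0.21 on the svb9 arrays, and -0.13 and 0.13 on the old wild type arrays, so each group spanned 0. The receptors of cysteinyl leukotrienes were at 0.016 and 0.0080 for the probes of Cysltr1 and at 0.063 for Cysltr2 in fl26. None of these had a limma adjusted p under 0.472 in a comparison with young wild type. Gpx1 and Mgst3, also of the conversion list, had larger fl26 means. Gpx1 averaged 0.79 ± 0.16 on probe 2 (limma adjusted p 0.263) and 0.060 ± 0.14 on probe 1. Its probe 2 averaged 0.51 in svb9 and 0.79 in old mice. Mgst3 averaged 0.38 ± 0.071 on probe 2 (limma adjusted p 0.232) and 0.21 ± 0.094 on probe 1. Its probe 2 averaged 0.016 in svb9.

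**Figure D4:**
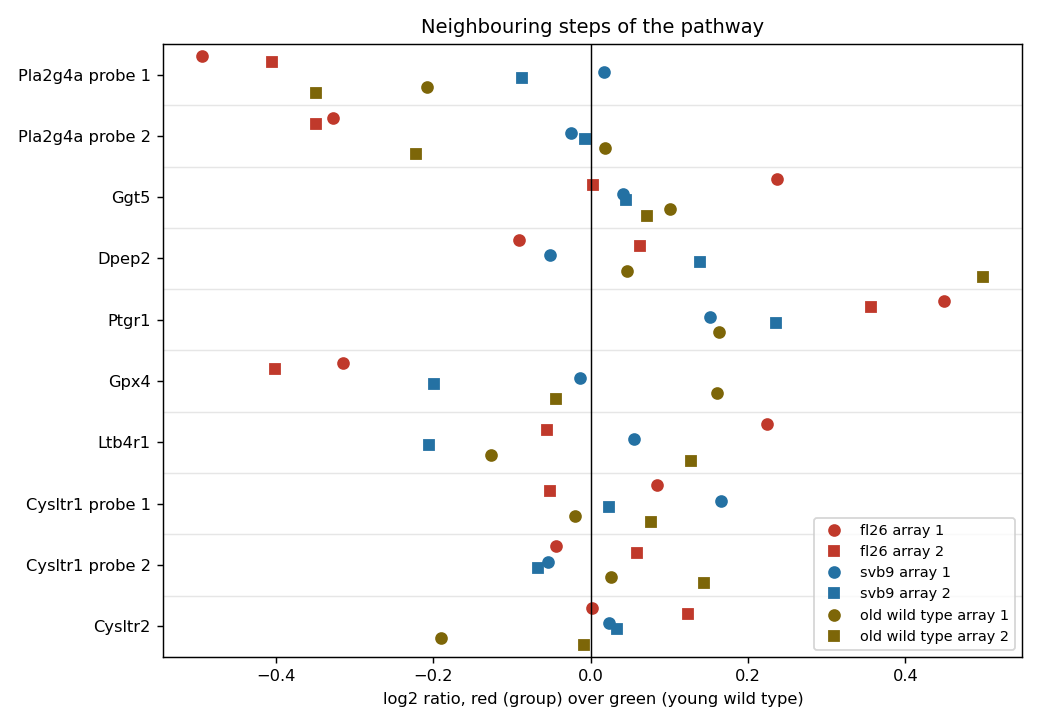
Log2 ratio of red over green (young wild type) for the tested probes of 8 genes of neighbouring steps, with 1 point per array. The points do not mark whether red was well above background. On both probes of Pla2g4a and on Gpx4 the fl26 arrays lie below the svb9 arrays, and on Ptgr1 above them. Of all probes with values on these arrays, 11.6% had fl26 below svb9 without overlap and 12.9% above. None was called without a block. With the replicate number as a block, Pla2g4a probe 1 and Gpx4 were called in fl26, beside 999 of 27858 probes.

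Genes with the most similar pattern of log2 ratios over the 6 arrays were listed for the 4 probes detected in both channels on at least 4 arrays. They were Map4k3, Celsr3 and Celf4 for probe 1 of Alox12 (Pearson r of 0.997, 0.993 and 0.992). For probe 1 of Alox12b they were Pcdhb14, Tfip11 and Snap47 (0.995, 0.991 and 0.988). For Alox5ap they were Ifi27l2a, an interferon-induced gene, Proc and Zfp74 (0.990, 0.987 and 0.984), and for Lta4h they were Ddx55, Tmem229b and Olfml3 (0.993, 0.992 and 0.989). The search covered 18220 probes over 6 arrays that share dye and young wild type. Between 0.735% and 1.33% of those probes had an r above 0.9 to one of the 4 probes, so a high r was common.

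The size of the ratios depended on the processing. The ratios above were computed after a constant of 50 units had been added to both channels, which pulls the ratio of a dim spot toward 0. The log ratios that the scanner software wrote for the same spots had the same sign at 23 of 23 member spots whose ratio above was over 0.1 in size and whose software value was neither 0 nor at its limit. They were larger by a median factor of 2.02, and they differ in background correction, the constant and dye normalization together. Leaving out background subtraction, and the constant of 50 with it, gave a median over the 9 members of 0.12 in fl26, against 0.14. The effect of the subtraction was thus not separated from that of the constant. Changed alone, centring each array on its median in place of loess gave 0.26. For Ltc4s the software's log2 ratios were 0.78 and 0.66 on the fl26 arrays, 0.33 and 0.0020 on the svb9 arrays, and 0.52 on old wild type array 2. Red of Ltc4s was not well above background on svb9 array 2 or old wild type array 2. For Alox12e they were 1.85 and 0.045 on the fl26 arrays, 0.14 and 0.13 on the svb9 arrays, and -0.22 and 0.44 on the old wild type arrays. At Alox15 and Ltc4s on old wild type array 1 the software wrote its lower limit of -2 on the log10 scale, and these are not measured ratios. In that scale, too, no member was called in any of the 4 comparisons with limma.

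**Figure D5:**
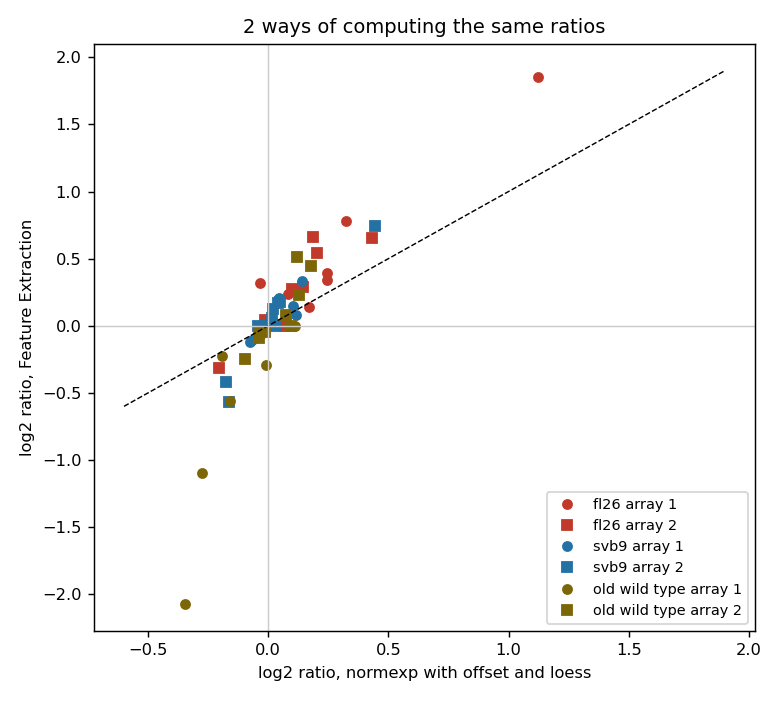
Log2 ratios of the 9 tested probes on 6 arrays as computed here (horizontal, constant of 50 added to each channel) and as written by the scanner software (vertical), without the 2 spots at the software's limit; the dashed line marks equal values. Alox12e on fl26 array 1 is at 1.12 and 1.85, and probe 1 of Alox12 on old wild type array 1 at -0.35 and -2.07. The red brightness of that Alox12 spot was 75.8 units over a local background of 78, so neither value compares detected levels.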

How the data were processed

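Per the file headers, the authors read the scans with Agilent's Feature Extraction software, version A.7.5.1. The deposited intensity of a spot is its mean in each channel, beside a median for the local background, and is not normalized. A deposited log10 ratio of red over green was background-subtracted and dye-normalized by that software, and the series table repeats it in rounded form.

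From the intensities, log2 ratios were computed in R 4.3.3 with limma 3.58.1. Control spots (2256 of 43790) and outlier spots were left out and saturated spots kept. Background was corrected by normexp with an offset of 50, arrays were normalized by loess, and spots of a probe were averaged (41174 probes). A probe was tested where any group had it well above background on both arrays in red, or on both in green. This gave 27858 probes, 26014 of them with values on all 6 arrays. Levels per channel were taken after Aquantile scaling. Names came from the RefSeq table of GRCm38.p6 for 20716 probes by systematic name and 100 by accession, and 20358 kept the file's name. A model of 3 group means over 6 arrays was fitted with limma (2-sided, Benjamini-Hochberg over all tested probes, threshold 0.05), with standard errors that rest on the spread between these arrays. The spread of young wild type pools does not enter a test against 0 where arrays share a pool. The code was tested on simulated data. Alternatives were no background subtraction (which also left out the offset), median centring, the software's log10 ratios turned to log2, and filters on dim probes. Further ones were outliers kept, the extraction date (3 dates) as a term, the replicate number as a block, and leaving out each array.

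The member genes, the eicosanoid and marker lists and the rule for named genes were chosen with earlier results of these data known. The rule named all member probes, 8 neighbouring genes whatever their values, other listed genes only if called, and the 3 genes most alike in pattern to each well-detected member. Gpx1 and Mgst3 are named outside that rule, after their values had been seen. The number of arrays limits the precision.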

Additional observations from a re-analysis of the deposited data

Results flagged for a closer look

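The green (young wild type) level of Ltc4s was 5.94 on old wild type array 1 on the normalized log2 scale, against 6.24 on the nearest of the other 5 arrays. The gap was 80.8% of the range of the 6 arrays. This was 1 of 11 probes examined in this way, and chance sets apart about 1 in 20 groups. The same array had the fewest red probes above background (3218). Whether the array's red channel bears on its green level was not tested.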

How the results depend on the processing

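No member probe was called in any of the 4 comparisons under any alternative that tested it, in 484 values of single probes. Of 36 values each, 20 moved by more than the spread between arrays with the software's log ratios, 18 with median centring, 4 with the date and 3 without background subtraction. With 2 arrays per group, leaving one out cannot move a mean by more than that spread, and the replicate block leaves means as they are, so these say nothing on stability. Over all alternatives 41 values changed sign. The lowest limma adjusted p were 0.0726 for probe 1 of Alox12 in fl26 with the replicate block and 0.0856 for the same probe (0.50) with the date as a term. Counts of all probes called were less stable. In fl26 over young wild type, where 14 were called, there were 6 with the software's log ratios, 121 with the date as a term, 0 with median centring, 2 without background subtraction, 999 with the replicate block and 0 to 1 when an array was left out. In old over young wild type, with none called, there were 11 with the date, 8 with outliers kept, 30 with the strict filter, 1211 with the replicate block and 0 to 2 with an array left out. With the replicate block there were 12 in svb9 and 10 in fl26 minus svb9, and with the date 2 in fl26 minus svb9, against 0. Arrays with the same number deviated together with r of 0.59 (fl26 with svb9), 0.33 (fl26 with old mice) and 0.17 (svb9 with old mice), and the labels describe no pairing. With the replicate block Pla2g4a probe 1 (-0.45, adjusted p 0.0329 from limma) and Gpx4 (-0.36, adjusted p 0.0471) were called in fl26. These genes' alternatives were added after the values had been seen, and these were the only calls among 535. The cause of these shifts was not tested. The median over members in fl26, 0.14, was 0.33 with the software's log ratios, 0.26 with median centring and 0.086 without a filter. In svb9, 0.018, it was 0.089, 0.059 and 0.062, with 0.042 under the strict filter, -0.0015 with the date and 0.018 to 0.040 with an array left out. In fl26 minus svb9, 0.15, it was 0.26 with the software's log ratios, 0.22 with median centring and 0.079 to 0.15 with an array left out. In old wild type, -0.024, it was -0.19 with the software's log ratios, -0.14 with median centring and -0.17 to 0.075 with an array left out. The lone array of a group is then assumed to vary like the others. Signal over background is a further limit: 4 of the 11 probes passed the strict filter.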
